A study of Homo sapiens with 6 samples.

Results

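Cytosolic ribosomal protein genes encode the protein part of the ribosome outside mitochondria. They were taken by name from the deposited table: RPL or RPS followed by digits, with an optional ending of A, X, L or L1, and RPLP0, RPLP1, RPLP2 and RPSA, without pseudogenes, kinases of the RPS6K family and numbered copies of a row. The rule found 83 of 27887 rows, 51 with names of the large (60S) subunit and 32 with names of the small (40S) subunit. Of these, 82 had a mean of at least 1 FPKM (fragments scaled to transcript length and library size) over the 6 libraries and entered the test. RPL3L, a paralog of RPL3 known from muscle, did not: its highest mean in either group was 0.020 FPKM. The rule used no measured value.

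The cells were KYSE450, an established line of human esophageal squamous cell carcinoma. The mock group had 3 libraries, of wild-type cells exposed to a mock virus. The shHMGB2 group also had 3, labelled as knockdown, of cells whose virus delivered a short hairpin RNA that targets HMGB2, a chromatin protein of the high mobility group. The study's stated purpose was a search for genes that regulate cholesterol metabolism. The sources used here do not give whether the mock virus carried a hairpin, how many hairpins were used or whether infected cells were selected. Replicates 2 and 3 of both groups are labelled as repeat samples. No label ties the libraries of a group to separate cultures, and the p-values below therefore describe the spread from library to library, which could be technical. Both groups were grown in the same medium with serum.

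Each ribosome holds a single copy of nearly every ribosomal protein, and growing cells make these proteins together with ribosomal RNA. The mRNAs are among the most abundant in a cell. Most start with a 5′ terminal oligopyrimidine (TOP) tract, a cytidine at the cap followed by an unbroken run of pyrimidines, through which mTORC1 and LARP1 control their translation. This control acts on translation and stability of mRNAs that already exist, so RNA-seq sees it only in part. Ribosomal RNA and ribosomal protein genes are also known targets of MYC.

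The tract is shown for genes that the results turn on. RefSeq (GRCh38.p14) gave an annotated start for 66 of the 83 genes. The motif searched on the sense strand was a C at the annotated start followed by at least 4 bases that were each C or T. It was found in 47 of the 66 (71.2%), with a longest run of 19 bases, and in 5.14% of all genes with a start in the same table. Each line shows 10 bases before and 20 bases from the start, 5′ to 3′ on the strand of the gene, with the run in capitals. The first 7 genes hold the motif and the last 3 do not. A match is a description of the annotated start, and the start used in these cells was not measured.
RPLP0, chr12:120201092-120201121, minus strand: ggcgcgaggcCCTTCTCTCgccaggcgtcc
RPS6, chr9:19380217-19380246, minus strand: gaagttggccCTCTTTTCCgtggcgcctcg
RPS12, chr6:132814559-132814588, plus strand: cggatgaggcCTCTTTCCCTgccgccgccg
RPL22L1, chr3:170870176-170870205, minus strand: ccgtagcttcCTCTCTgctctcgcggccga
RPL31, chr2:101002279-101002308, plus strand: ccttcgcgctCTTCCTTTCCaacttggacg
RPS24, chr10:78033853-78033882, plus strand: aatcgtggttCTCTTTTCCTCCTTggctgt
RPSA, chr3:39406710-39406739, plus strand: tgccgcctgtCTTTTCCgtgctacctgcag
RPS26, chr12:56041908-56041937, plus strand: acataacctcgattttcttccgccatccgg
RPS28, chr19:8321486-8321515, plus strand: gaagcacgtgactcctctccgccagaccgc
RPS29, chr14:49598691-49598720, minus strand: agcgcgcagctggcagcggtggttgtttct

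The target was lower in every shHMGB2 library. HMGB2 stood at 116, 111 and 109 FPKM in mock replicates 1, 2 and 3 and at 22.1, 24.4 and 27.8 FPKM in shHMGB2 replicates 1, 2 and 3, so the shHMGB2 mean was 22.1% of the mock mean (limma adjusted p = 1.1e-04). Total FPKM per library lay between 740684 and 829437, and the size factors behind the authors' group values between 0.699 and 1.31, a 1.88-fold range of relative depth. Read counts per library are not in the table, so intervals from counting were not computed. All 12 squamous epithelial markers examined were measured, with KRT5 at 3376 FPKM in mock and 3504 FPKM in shHMGB2 libraries. By the test used below 4 of the 12 were lower and 1 higher, beside 3.45% lower and 3.3% higher among all genes tested. The squamous list summed to 8426 to 8809 FPKM in mock and 7313 to 8044 FPKM in shHMGB2 libraries, without overlap. Of the markers of other cell types, the fibroblast list summed to 2.94 to 3.70 FPKM in mock and 4.00 to 4.46 in shHMGB2 libraries, the leukocyte list to 7.04 to 7.88 and 4.64 to 5.14, the endothelial list to 1.88 to 2.58 and 2.39 to 2.80, and the packaging cell list to 11.7 to 13.01 and 14.9 to 16.7. Nearly all of these sums came from LUM, CD68, ERG and NEFL, while COL1A2, COL3A1, DCN, PTPRC and PECAM1 were at or near 0. The part of these lists in the results below was not tested.

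Ribosomal protein mRNAs as a class changed little between the groups, and most lay slightly lower in shHMGB2 cells. Of the 82 genes tested, none passed the threshold upward and 2 passed it downward, RPL22L1 and RPS26 (limma on log2(FPKM + 1), Benjamini-Hochberg adjusted p under 0.05 over 13409 genes). Among all genes tested, 3.45% were called lower and 3.3% higher, so the share of ribosomal protein genes called lower was near the background. The fold change (log2, shHMGB2 minus mock) was below 0 for 71 of the 82 genes and above 0 for 11, and below 0 for 43.0% of all genes tested. Its median was -0.12 for the ribosomal protein genes, against 0.035 for all genes tested. In bulk RNA, fewer cells of a type and less RNA per cell cannot be told apart.

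The subunits had close medians. The 50 large-subunit genes tested had a median fold change of -0.12 (log2), with 42 below 0 and RPL22L1 as the 1 call. The 32 small-subunit genes had a median of -0.14 (log2), with 29 below 0 and RPS26 as the 1 call. Whether the subunits differed was not tested. Of the 82 genes, 18 had an unadjusted limma p under 0.05, and all 18 were lower; over all genes tested, 27.9% had such a p in either direction and 11.1% had it with a lower value. In 22 genes, 11 of each subunit, all 3 shHMGB2 libraries lay below all 3 mock libraries, and in none above. Over all genes tested, 14% were separated in this way downward and 21.6% upward.

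**Figure D1:**
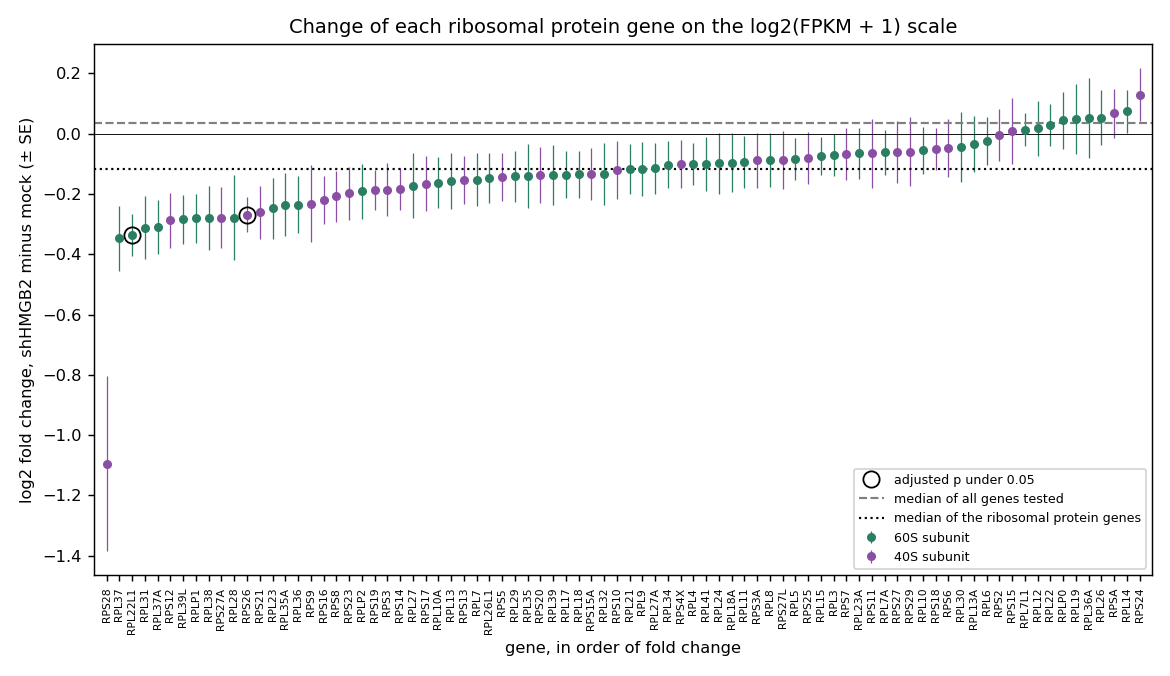
Log2 fold change (shHMGB2 minus mock, log2(FPKM + 1) scale) of the 82 ribosomal protein genes tested, in order, with standard errors from limma; green marks 60S and purple 40S genes, and rings mark the 2 genes with an adjusted p under 0.05. The dotted line is the median of these genes (-0.12) and the dashed line that of all genes tested (0.035), and RPS28 lies apart at -1.09.

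One mock library stood above the others. Mock replicate 1 held the highest of the 6 values for 70 of the 82 ribosomal protein genes (85.4%), whereas it held the highest value for 23.5% of all genes tested. The median deviation of these genes from their own mean over the 6 libraries was 0.20, 0.043 and -0.056 (log2) in mock replicates 1, 2 and 3. In shHMGB2 replicates 1, 2 and 3 it was -0.090, -0.075 and -0.018. Mock replicate 3 therefore lay between shHMGB2 replicates 2 and 3, and the spread among the mock libraries was wider than the distance between the group medians. Without mock replicate 1 the median fold change was -0.055 (log2), 60 of the 82 genes were below 0, and no gene was called. Without mock replicate 3 it was -0.18, 78 genes were below 0, and RPL37A, RPL39L and RPS28 were called lower. Leaving out each of the other 4 libraries gave medians between -0.14 and -0.11 (log2), with RPS28 called without mock replicate 2 and no gene called without a shHMGB2 library.

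**Figure D2:**
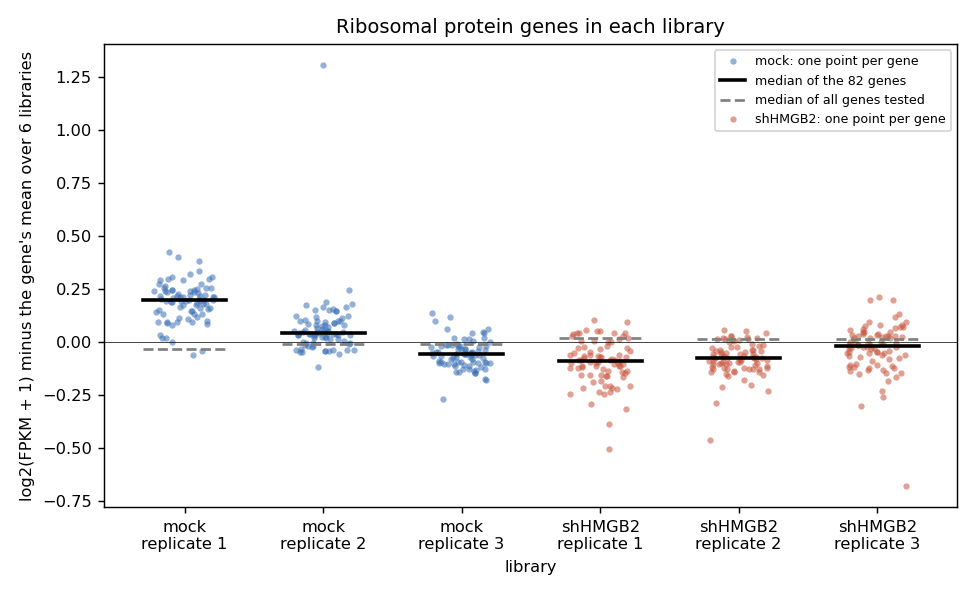
Deviation of log2(FPKM + 1) from each gene's mean over the 6 libraries, one point for each of the 82 ribosomal protein genes in each library, mock in blue and shHMGB2 in red. Black bars are the medians of these genes, 0.20 in mock replicate 1 and -0.090 to 0.043 in the other libraries, and dashed grey bars are the medians of all genes tested.

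The share of the transcriptome taken by ribosomal protein mRNAs overlapped between the groups. Their summed FPKM made up 18.1%, 17.4% and 16.8% of the total in mock replicates 1, 2 and 3, and 16.4%, 17.0% and 16.9% in shHMGB2 replicates 1, 2 and 3. The means were 17.4% ± 0.635 (SD, n = 3) and 16.8% ± 0.334 (SD, n = 3). An exact 2-sided permutation test gave p = 0.3, where the smallest p that 3 against 3 libraries allow is 0.1. The difference of -0.658 percentage points became -0.342 without mock replicate 1. The transcripts encoded by mitochondria took 10.1% to 11.8% of the total over the 6 libraries. Among ribosomal protein genes, the 5 highest by FPKM, RPS27, RPL12, RPL26, RPL35 and RPS6, held 20.3% of the summed level. Numbered copies are left out of these shares.

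RPL22L1 and RPS26 were the genes that passed the threshold. RPL22L1 is a paralog of RPL22, a large-subunit protein that binds RNA. It measured 24.0, 24.0 and 23.3 FPKM in mock replicates 1, 2 and 3 and 17.0, 19.0 and 20 FPKM in shHMGB2 replicates 1, 2 and 3. The groups did not overlap, and the fold change was -0.34 ± 0.070 (log2, SE; limma adjusted p = 0.036). RPS26, a small-subunit protein placed near the mRNA exit channel, measured 27.7, 25.7 and 26.2 FPKM in mock and 22.7, 21.2 and 21.7 FPKM in shHMGB2 libraries. Again every shHMGB2 library was below every mock library, with a fold change of -0.27 ± 0.059 (log2, SE; limma adjusted p = 0.040). Both sat among the 5 lowest of the 82 genes by level, beside RPL39L, RPL36A and RPS27L. Each lost the call when any single library was left out, with adjusted p between 0.058 and 0.12 for RPL22L1 and between 0.058 and 0.15 for RPS26, while both stayed lower. RefSeq names 59 pseudogenes for RPS26 and 0 for RPL22L1. Levels are uncertain where reads fit several rows, and whether this bears on the call of RPS26 was not tested.

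RPS28, a small protein of the 40S head, had the largest fold change and a wide spread. It measured 120, 246 and 103 FPKM in mock replicates 1, 2 and 3 and 69.6, 71.7 and 61.5 FPKM in shHMGB2 replicates 1, 2 and 3. The groups did not overlap, but mock replicate 2 lay more than 100 FPKM above both other mock libraries. The fold change of -1.09 ± 0.29 (log2, SE) did not pass the threshold (limma adjusted p = 0.066). Without mock replicate 2 it was -0.72 and passed (limma adjusted p = 0.023). It also passed without mock replicate 3 (-1.34; limma adjusted p = 0.042), with a filter at a mean of 5 FPKM (limma adjusted p = 0.044), with numbered copies summed (0.046) and with library weights (-1.70; 0.0045). Over all alternatives on FPKM its limma adjusted p lay between 0.0045 and 0.18. In the authors' deposited table the same gene stood at -0.36 (log2), with an adjusted p of 0.045.

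The other genes at the low end were large-subunit proteins and RPS12. RPL37, a zinc-binding protein of the large subunit, measured 237, 186 and 178 FPKM in mock and 150, 159 and 159 FPKM in shHMGB2 libraries. RPL31 measured 788, 748 and 725 FPKM against 517, 684 and 630 FPKM, and RPL37A 157, 144 and 127 FPKM against 110, 110 and 124 FPKM. All 3 were separated between the groups without passing the threshold, with fold changes of -0.35, -0.31 and -0.31 (log2; limma adjusted p = 0.094, 0.11 and 0.079). RPS12, a small-subunit protein, measured 3173, 3162 and 2872 FPKM against 2390, 2804 and 2363 FPKM. It was the most abundant of the 6 genes with the lowest fold changes, at -0.29 (log2; limma adjusted p = 0.098).

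The stalk of the large subunit, which recruits the translation GTPases, was uneven. RPLP0, the stalk base, measured 3376, 3090 and 2899 FPKM in mock and 3284, 2912 and 3466 FPKM in shHMGB2 libraries, and the groups overlapped (0.044, log2; limma adjusted p = 0.79). RPLP1, which pairs with RPLP2 to form the arms of the stalk, measured 845, 769 and 728 FPKM against 662, 674 and 591 FPKM. Its groups did not overlap, at -0.28 (log2; limma adjusted p = 0.083). RPLP2 measured 3793, 3443 and 3087 FPKM against 3022, 3098 and 2896 FPKM, at -0.19 (log2; limma adjusted p = 0.22), and shHMGB2 replicate 2 lay just above mock replicate 3. Whether RPLP0 differed from the other two in its response was not tested.

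Among the best-known members, RPS6, RPL5 and RPL11 lay close to 0, while RPL23 and RPS27A lay further below it. RPS6, the substrate of the S6 kinases, measured 4670, 4114 and 3848 FPKM in mock and 3862, 3970 and 4368 FPKM in shHMGB2 libraries, and every shHMGB2 value lay inside the mock range (-0.048, log2; limma adjusted p = 0.77). RPL5 and RPL11, which with 5S ribosomal RNA can bind MDM2, stood at -0.084 and -0.093 (log2; limma adjusted p = 0.46 and 0.51). RPL23, a further MDM2 binder, stood at -0.25 (log2; limma adjusted p = 0.16). RPS27A, which is made as a fusion to ubiquitin, measured 1405, 1353 and 1273 FPKM against 981, 1269 and 1088 FPKM, without overlap and without passing the threshold (-0.28, log2; limma adjusted p = 0.13).

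None of the 11 genes above 0 passed the threshold. RPS24, a small-subunit protein, had the highest fold change, 0.13 (log2; limma adjusted p = 0.37). It measured 3647, 3513 and 3306 FPKM in mock and 3600, 3645 and 4222 FPKM in shHMGB2 libraries, so only shHMGB2 replicate 3 lay above the mock range. RPL14, RPSA, RPL26 and RPL36A followed, at 0.075, 0.068, 0.053 and 0.052 (log2). RPSA, a small-subunit protein also described as a laminin receptor, measured 2154, 1972 and 1836 FPKM against 2090, 1981 and 2171 FPKM. RPL36A was among the lowest of all, at 6.25, 7.02 and 4.94 FPKM against 5.5, 6.23 and 7.19 FPKM.

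**Figure D3:**
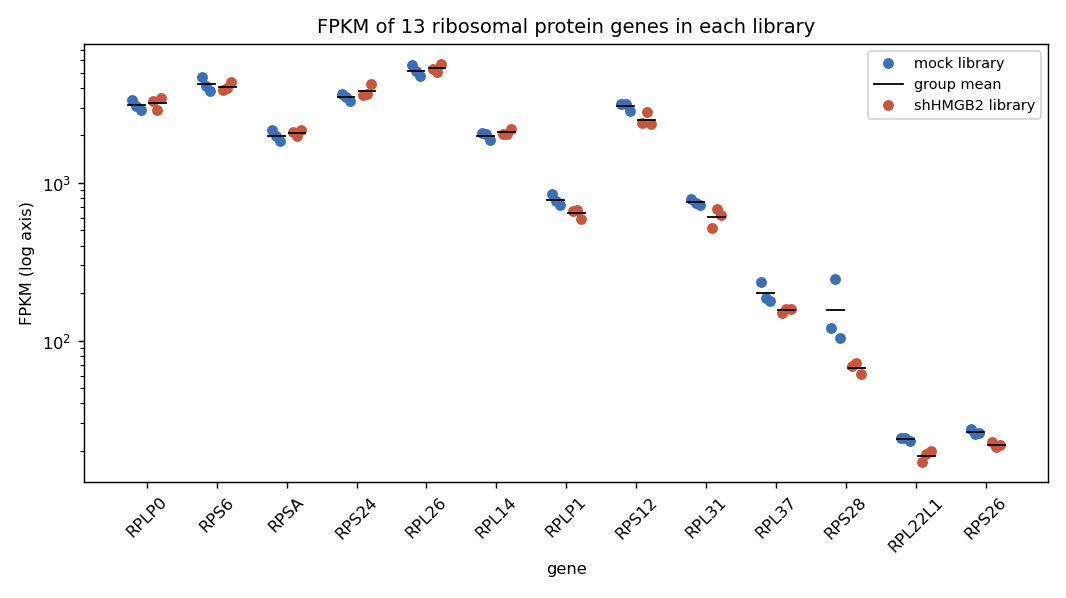
FPKM on a log axis of 13 ribosomal protein genes in the 3 mock (blue) and 3 shHMGB2 (red) libraries, in replicate order, with group means as black lines. RPL22L1, RPS26, RPS28, RPL37, RPL31, RPS12 and RPLP1 show no overlap between the groups, while RPLP0, RPS6, RPSA, RPS24, RPL26 and RPL14 overlap.

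Levels spanned more than 3 orders of magnitude on the FPKM scale. Their order depended on the scale: by the authors' mock group value RPS6 ranked 1 and RPS27 ranked 60 among the 83 genes. By FPKM RPS27 was the highest, at 8125, 6948 and 6447 FPKM in mock and 7175, 6627 and 6754 FPKM in shHMGB2 libraries. RPL12 followed with a mean of 5724 FPKM over the 6 libraries and RPL26 with 5246 FPKM. These neighbours were not separated from their libraries' spread: the mock SD was 862 FPKM for RPS27 and 522 FPKM for RPL12. At the other end RPS27L, a paralog of RPS27 that p53 can induce, measured 1.58, 1.65 and 1.32 FPKM in mock and 1.27, 1.39 and 1.44 FPKM in shHMGB2 libraries. Levels are uncertain where reads fit several rows. RPS18 had 4 numbered copies with the same 6 values, RPS9 had 9 copies, and RefSeq names up to 137 pseudogenes for 1 gene, RPL21. Copies are left out of the order given here. They held 3613 FPKM for RPS18, beside its own mean of 903 FPKM, and 3182 FPKM for RPS2, beside 3319 FPKM.

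Some paralogs can replace their partners in the ribosome. Whether each paralog named here does so was not measured. As mRNA, 6 pairs could be compared by the paralog's share of the pair's summed FPKM. RPL22L1 made up 8.04%, 8.74% and 8.84% of RPL22L1 plus RPL22 in mock replicates 1, 2 and 3 and 6.45%, 6.75% and 6.89% in shHMGB2 replicates 1, 2 and 3. RPL22 itself measured 275, 251 and 240 FPKM against 247, 263 and 270 FPKM. RPL26L1 made up 2.70% ± 0.0442 of its pair in mock and 2.35% ± 0.0951 in shHMGB2 libraries (SD, n = 3), and RPL7L1 5.35% ± 0.252 and 5.97% ± 0.396 (SD, n = 3), so the share of RPL7L1 was higher. Its difference of 0.618 percentage points became 0.394 without shHMGB2 replicate 1. These 3 pairs did not overlap between the groups, and each reached the smallest p that the exact permutation test allows, 0.1 (Benjamini-Hochberg 0.2 over the 6 pairs). RPL39L with RPL39, RPS27L with RPS27 and RPL36AL with RPL36A overlapped (exact permutation p = 0.5 to 0.6).

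A larger number of these genes was called lower in the authors' deposited table, whose test has no name in the labels or header. It listed all 82 below 0, with a median of -0.25 (log2), and gave 38 of them an adjusted p under 0.05, all lower. In the authors' deposited table as a whole, 9.23% of the genes with an adjusted p were lower and 6.13% higher. Of these 13585 genes, 7062 were below 0, with a median of -0.011 (log2). Of the 38, 20 belonged to the small and 18 to the large subunit, and they included RPL22L1 and RPS26. RPS21 stood lowest there at -0.56 (log2), against -0.26 on the log2(FPKM + 1) scale. Of the 22 genes whose groups did not overlap in FPKM, 21 were among the 38. Over all genes tested, 1102 of the 1882 separated downward were lower in the authors' deposited table.

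The distance between the 2 fold changes followed the reads behind an FPKM. The authors' mock group value divided by the mean mock FPKM ran from 0.679 for RPS29 to 142 for RPS27L. FPKM divides fragments by transcript length, but this quotient was not compared with transcript lengths. RPS12 and RPL37 had nearly equal authors' mock group values, 14257 and 14235, at mock means of 3069 and 200 FPKM. Across the 82 genes this quotient and the difference between the fold changes had a Spearman rho of 0.92, given as a description because the genes share libraries. The difference (the authors' minus that of FPKM, log2) had a median of -0.19 in the 18 genes with a quotient under 6, -0.11 in the 40 genes from 6 to 20, and -0.079 in the 24 genes at 20 or more. All genes with both values gave -0.19, -0.10 and -0.059 in the same bins. RPS29 stood at -0.060 (log2) by FPKM and at -0.44 in the authors' deposited table, and RPS27 at -0.060 and -0.39. RPS28 and RPL31 were the exceptions, with less negative values in the authors' deposited table than by FPKM. Which of the 2 scales is closer to the RNA in the cells was not tested.

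**Figure D4:**
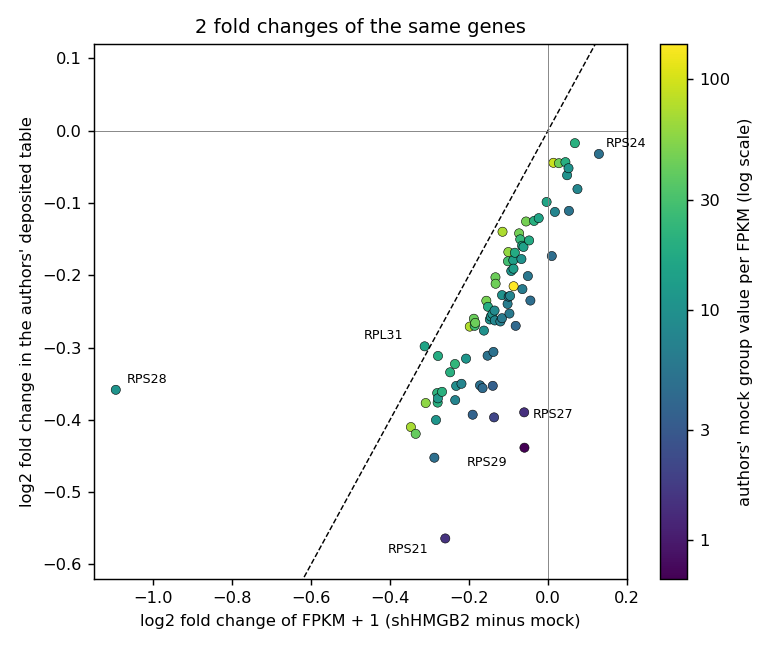
Log2 fold change of each of the 82 ribosomal protein genes by FPKM (horizontal) and in the authors' deposited table (vertical), coloured on a log scale by the authors' mock group value per FPKM; the dashed line marks equal values. All but 2 genes, RPS28 and RPL31, lie below the line, and RPS29, RPS27 and RPS21, with the darkest colours, lie far below it.

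Genes with and without a TOP start had medians close to each other. The 47 ribosomal protein genes with the motif had a median fold change of -0.13 (log2) with 1 call, RPL22L1, and the 19 with a start but without the motif a median of -0.10 with 1 call, RPS26. The 677 other tested genes with the motif had a median of 0.041 (log2), with 18 lower and 25 higher. The difference between genes with and without the motif was not tested.

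Most translation genes outside the name rule had no limma call. The counts of the lists that follow stand against 3.45% lower, 3.3% higher and 27.9% with an unadjusted p under 0.05 among all genes tested in limma, and 9.23% lower and 6.13% higher in the authors' deposited table. Of 10 genes listed as translation elongation factors none passed in limma, with a median of -0.063 (log2). An unadjusted limma p under 0.05 was found for 2, EEF1E1 and EIF5A, and 1 gene was lower in the authors' deposited table. Of 26 further mRNAs known for a TOP tract none passed (median -0.043, log2), with 6 at an unadjusted p under 0.05 and 8 lower in the authors' deposited table. Of 17 host genes of small nucleolar RNAs, 9 had an unadjusted p under 0.05, 8 were lower in the authors' deposited table, and in limma 2 were lower, ZFAS1 (-0.40, log2; limma adjusted p = 0.031) and SNHG8 (-0.40, log2; limma adjusted p = 0.034), and the median was -0.18. Of 17 regulators of TOP mRNAs and mTOR signalling none passed (median 0.029, log2), with 3 at an unadjusted p under 0.05, and the authors' deposited table had 1 lower and 1 higher.

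Among the 30 initiation factors, 11 had an unadjusted limma p under 0.05. They gave 1 gene higher and 2 lower in limma, near the shares over all genes, and 1 higher and 9 lower in the authors' deposited table. Their lower count was 0 to 2 when 1 library was left out. EIF4EBP2, an mTOR-controlled inhibitor of translation initiation, rose from 8.74, 8.78 and 9.70 FPKM in mock to 15.6, 14.4 and 14.2 FPKM in shHMGB2 libraries (0.64, log2; limma adjusted p = 0.0033). EIF4H, a helper of the helicase EIF4A, fell from 222, 224 and 233 FPKM to 192, 195 and 195 FPKM (-0.22, log2; limma adjusted p = 0.042). EIF1B, a paralog of the start-codon selection factor EIF1, fell by 0.34 on the log2 scale (limma adjusted p = 0.048). None of the 3 overlapped between the groups.

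Some ribosome assembly genes were lower. Of 57 ribosome biogenesis genes, 7 were lower and none higher, with a median of -0.14 (log2), beside 3.45% lower among all genes tested. An unadjusted limma p under 0.05 was found for 26 of the 57, beside 27.9% of all genes tested. When 1 library was left out, the lower count was 1 without mock replicate 2, shHMGB2 replicate 1 or shHMGB2 replicate 3, 2 without shHMGB2 replicate 2, and 6 or 7 without mock replicate 1 or 3. The authors' deposited table called 26 of the 57 lower. The difference from the ribosomal protein genes was not tested. DDX21, a nucleolar helicase that acts in ribosomal RNA transcription and processing, fell from 99.6, 126 and 135 FPKM in mock to 57.8, 65.4 and 63.4 FPKM in shHMGB2 libraries (-0.93, log2; limma adjusted p = 0.0052). RRP1B and NOP16, nucleolar proteins of large-subunit assembly, fell by 0.45 and 0.40 on the log2 scale (limma adjusted p = 0.015 and 0.043). The other 4 were LYAR, NIP7, PES1 and RRP9. Among the 7, mock replicate 1 was the highest of the 6 libraries for NOP16, PES1 and RRP9, and the lowest mock library for the other 4. Of 20 RNA polymerase I genes none passed (median -0.031, log2), with 5 at an unadjusted limma p under 0.05 and 2 lower in the authors' deposited table.

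Mitochondrial ribosomal proteins, a separate family encoded in the nucleus, resembled the cytosolic genes in median. Of 78 tested, 4 were lower and none higher, with a median of -0.12 (log2), and the authors' deposited table called 26 lower. An unadjusted limma p under 0.05 was found for 28 of the 78, beside 27.9% of all genes tested. In limma none was called without mock replicate 2, and 1 without any single shHMGB2 library. MRPS9 fell from 106, 100 and 98.3 FPKM to 61.6, 74.7 and 73.8 FPKM (-0.54, log2; limma adjusted p = 0.014), and MRPL33 and MRPL45 fell by 0.36 and 0.34 on the log2 scale (limma adjusted p = 0.013 and 0.021). MRPL57 was the fourth. Of 21 cytosolic aminoacyl-tRNA synthetases none passed (median 0.00052, log2), with 6 at an unadjusted limma p under 0.05 and 3 lower in the authors' deposited table. Of 13 immediate early genes 1 was lower in limma, JUNB, and the median of the list was -0.18 (log2). Among the 13, 8 had an unadjusted limma p under 0.05, beside 27.9% of all genes tested. Of these 8, FOS was higher in shHMGB2 libraries (0.34, log2). In the authors' deposited table, 5 of the 13 were lower, and so was EGR3, which did not enter the limma test. Of 13 mitochondrially encoded genes and 45 replication-dependent histone genes none passed, with 1 and 8 at an unadjusted limma p under 0.05. The authors' deposited table had 4 of the 13 mitochondrially encoded genes lower. It gave an adjusted p for only 11 of the 45 histone genes, and 1 of these was higher.

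MYC and its partners gave 1 gene higher and 2 lower of 8 tested. Among the 8, 4 had an unadjusted limma p under 0.05, and the authors' deposited table had 1 higher and 2 lower. MYC, a transcription factor that drives ribosome production, fell from 160, 136 and 140 FPKM in mock to 109, 110 and 111 FPKM in shHMGB2 libraries (-0.39, log2; limma adjusted p = 0.021). MXD1, an antagonist that competes for MAX, fell by 0.65 and MXD4, of the same family, rose by 0.64 on the log2 scale (limma adjusted p = 0.026 and 0.011). Whether any of these bears on the ribosomal protein genes was not tested.

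The position of the ribosomal protein genes below the other genes was found under every scaling tried, with a size that depended on it. Their median fold change minus that of all genes tested was -0.15 (log2) as reported, -0.16 with median-of-ratios scaling and -0.060 with quantile normalization, where 56 of 82 genes were below 0. With quantile normalization RPL26 was called higher. RPLP0 and RPS6 changed sign with the scaling, as given in the closing section.

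**Figure D5:**
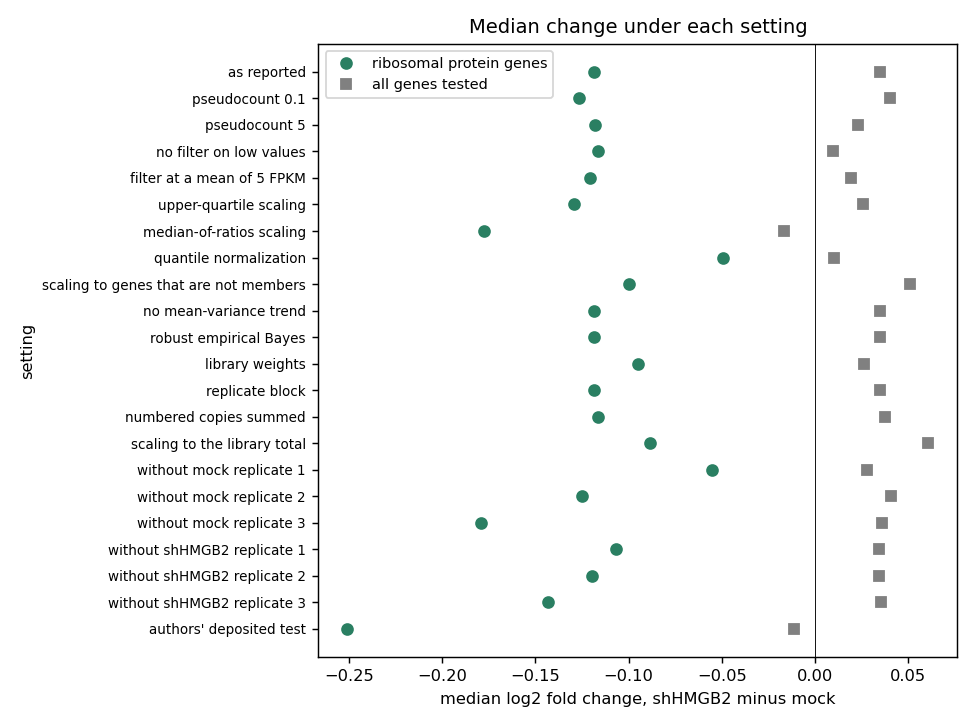
Median log2 fold change (shHMGB2 minus mock) of the ribosomal protein genes (green circles) and of all genes tested (grey squares) under each setting on the vertical axis. The circles run from -0.25 with the authors' deposited test to -0.049 with quantile normalization, and each lies left of its square.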

How the data were processed

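The deposited table gives FPKM per library, per the file headers; the submitters' processing notes list Bowtie2 2.2.5, RSEM 1.2.12 and hg38, with no roles. The authors' deposited group values are a normalized signal whose ratio gives the deposited log2 fold change. No source used here names the test behind the authors' p-value, raw or adjusted. Relative depth came from genes seen in a single library, whose summed group values were whole multiples of 1 step (tolerance 0.01) in 100% of cases; whole reads per gene were not recovered and no count test was run.

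log2(FPKM + 1) was fitted, for genes averaging 1 FPKM or more, with limma 3.58.1 in R 4.3.3 (group only, empirical Bayes with trend, Benjamini-Hochberg, 2-sided threshold 0.05), after tests on simulated data. Fold changes on this scale understate changes of low genes. Single values per library used exact permutation tests. Members and lists were chosen with earlier results of these data known. Genes named were well-known members, the 5 at each end of fold change and level, called members, paralogs, and up to 3 called genes or the smallest p of each other list; the rest were chosen after their values were seen. One other list is not reported here. Alternatives covered pseudocount, filter, scaling, variance model, weights, threshold, replicate block, copies and each library left out; scaling to the library total and the authors' deposited test were added after seeing the data.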

Additional observations from a re-analysis of the deposited data

How the results depend on the processing

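The median fold change of the ribosomal protein genes was below 0 in all settings run, from -0.25 (log2) in the authors' deposited test to -0.049 with quantile normalization; the authors' test gave -0.24 for the large and -0.27 for the small subunit. The number called lower was 2 and became 0 without a filter, with scaling to the other genes or to the library total, and at a threshold of 0.01; 1 with upper-quartile scaling or no trend; 8 at a threshold of 0.1; 22 with library weights; and 38 in the authors' test. Weights lay between 0.246 for mock replicate 1 and 6.04 for mock replicate 2. Leaving out 1 library gave 0 to 3, with medians from -0.18 to -0.055. In the same settings the large subunit gave 0, 0, 0, 0, 1, 1, 5, 12 and 18 lower (0 to 2 without 1 library) and the small subunit 0, 0, 0, 0, 0, 0, 3, 10 and 20 (0 to 1), with 2 at a filter of 5 FPKM or with copies summed. Quantile normalization gave 1 higher, RPL26. The cause of these moves was not tested.

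With the replicate block, no ribosomal protein gene was called, and 138 genes were higher and 234 lower. Same-numbered libraries correlated at -0.012, -0.038 and -0.096, and differently numbered libraries at -0.050 to 0.094. These correlations cannot show whether same-numbered libraries were handled together, and no label states a pairing.

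Over all genes, 442 higher and 463 lower became 167 and 245 without a filter, 235 and 293 with scaling to the library total, 78 and 164 at a threshold of 0.01, 1156 and 878 at 0.1, 2436 and 1758 with weights, and 833 and 1254 in the authors' test; upper-quartile scaling gave 216 higher and scaling to the other genes 244. Leaving out 1 library gave 97 to 449 higher and 193 to 446 lower.

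Ribosome biogenesis genes called lower were 3 without a filter or trend, 4 with upper-quartile, other-gene or total scaling, 1 with the block or at 0.01, 17 at 0.1, 27 with weights, 26 in the authors' test and 1 to 7 without 1 library. Mitochondrial ribosomal genes gave 1 with the block, 0 at 0.01, 10 at 0.1, 22 with weights, 26 in the authors' test and 0 to 4 without 1 library. Initiation factors ranged from 0 to 9 lower (0 to 2 without 1 library), host genes of small nucleolar RNAs from 0 to 9 lower (0 to 3 without 1 library), and other TOP mRNAs from 0 to 5 with weights and 8 in the authors' test. Over all settings, aminoacyl-tRNA synthetases gave up to 3 higher and 4 lower, RNA polymerase I up to 3 and 3 (lower 0 to 1 without 1 library), TOP and mTOR regulators up to 2 and 1 (higher 0 to 1 without 1 library), elongation factors up to 2 lower, MYC and partners 0 to 2 in each direction, mitochondrially encoded genes up to 4 lower, immediate early genes up to 2 higher and 0 to 6 lower, histones up to 3 higher, squamous markers 0 to 3 higher and 2 to 5 lower, and fibroblast and packaging cell markers 0 to 1 higher.

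Of 1351 values of 59 named genes under the alternatives, 1122 kept direction and side of the threshold, 139 lost the call, 58 gained it and 32 changed sign, none of these with a call. Median-of-ratios scaling put RPL12, RPL22, RPL26, RPL7L1 and RPLP0 at -0.042, -0.031, -0.0060, -0.045 and -0.015; quantile normalization RPL36A at -0.0062 and RPS6 at 0.030; weights RPL36A at -0.076 and RPL7L1 at -0.014. The authors' test put RPL12, RPL14, RPL22, RPL26, RPL36A, RPL7L1, RPLP0, RPS24 and RPSA at -0.11, -0.081, -0.045, -0.11, -0.052, -0.044, -0.043, -0.032 and -0.017. Without 1 library, RPL7L1 ranged from -0.0035 to 0.040, RPS27 from -0.13 to 0.033, RPS6 from -0.11 to 0.029, RPL12 from -0.040 to 0.089, RPL22 from -0.015 to 0.082, RPL26 from -0.0046 to 0.12, RPL36A from -0.068 to 0.15 and RPLP0 from -0.011 to 0.12 (log2).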
